A study of Mus musculus with 24 samples.

Results

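Major histocompatibility complex (MHC) class I molecules carry peptides from inside the cell to its surface, and 10 mouse genes of that pathway were followed here in splenic CD4+ T cells. They are 6 class I heavy chain genes (H2-K1, H2-D1, H2-Q4, H2-Q7, H2-T22 and H2-T23), the light chain gene B2m, both subunits of the peptide transporter (Tap1 and Tap2) and Nlrc5, the transactivator of class I genes. They are 10 of the 54446 genes in the count table and were chosen by symbol after their counts across genotypes and times had been seen, so their own values are described without a test. Tests were kept for other genes of the pathway.

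The study took CD4+ T cells from the spleens of wild-type (WT) mice and of mice lacking AIM2 (Aim2-/-), a cytosolic sensor of double-stranded DNA, and activated them in culture with plate-bound anti-CD3 and soluble anti-CD28. Both genotypes were on the C57BL/6 background, were matched for sex and age and were housed together. Their ages, and how the Aim2 gene was disrupted, are not given in the sources used here. Cells were enriched by negative magnetic selection, and RNA was taken before stimulation (0 h) and after 3, 6 and 24 h. The 8 groups of genotype and time held 3 libraries each, 24 in all, from 3 mice a genotype whose numbers recur at the 4 times. Both genotypes received the same stimulation, and no cells cultured without it were analysed here, so time in culture and stimulation cannot be told apart. The RNA sequencing that the study's paper shows is of naive cells and of cells in regulatory T cell culture. Its methods were taken to apply to these libraries where they match the sample labels.

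In a nucleated cell the proteasome cuts proteins into peptides, the transporter formed by TAP1 and TAP2 moves them into the endoplasmic reticulum, and the loading complex with tapasin, calreticulin and ERp57 places them on a heavy chain paired with beta 2-microglobulin. H2-K and H2-D are the classical molecules that present to CD8+ T cells. The Q and T region genes encode nonclassical molecules, among them Qa-2 (H2-Q7) and Qa-1 (H2-T23), the ligand of the CD94-NKG2 receptors. NLRC5 acts at class I promoters with the RFX factors, CREB or ATF1 and NF-Y, while NF-kB and the interferon-induced factor IRF1 act through sites nearby. Interferon gamma is a known inducer of nearly the whole pathway.

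On GRCm38 the members lay mostly in the MHC on chromosome 17. H2-K1 is at chr17:33996017-34000347 on the minus strand, Tap1 at chr17:34187553-34197225 and Tap2 at chr17:34203527-34216321 on the plus strand, H2-D1 at chr17:35262730-35267499, H2-Q4 at chr17:35379617-35385290 and H2-Q7 at chr17:35439155-35443773 on the plus strand, and H2-T23 at chr17:36029773-36032855 and H2-T22 at chr17:36037128-36042747 on the minus strand. B2m is at chr2:122147686-122153083 and Nlrc5 at chr8:94434356-94527272, both on the plus strand. The heavy chain genes are close copies of each other. Of all 51-base stretches of the longest transcript, the length of a read, 58.0% in H2-T22, 36.1% in H2-Q4, 28.0% in H2-Q7, 15.5% in H2-T23, 13.7% in H2-D1 and 7.57% in H2-K1 also occurred in transcripts of another gene, against 12.4% in Tap2, 0.622% in Tap1 and 0% in B2m and Nlrc5. Reads from those stretches could have been dropped or split, so the heavy chain levels, above all those of H2-T22, H2-Q4 and H2-Q7, are uncertain. H2-Q4, H2-T22, H2-T23, B2m, Tap1, Tap2 and Nlrc5 also overlap a gene on the opposite strand, and whether the counting used strand is not given in the sources used here.

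The promoters of 4 members are printed to show exact matches to letters of known class I promoter elements. These were picked because the genes behind them behaved differently after stimulation. Each line gives the 160 bases just before the RefSeq transcript start on GRCm38.p6, with matches to the searched motifs in capitals. The letters searched on both strands were CCAAT (the NF-Y box, ATTGG on the other strand), TGACG (the core of a CREB or ATF site), GAAANNGAA (an interferon-stimulated element), GGGATTCCC (an NF-kB site) and TTCNNNGAA (an interferon gamma activated sequence), and no matches overlapped in the member promoters.
H2-K1 at chr17:34000348-34000507, minus strand: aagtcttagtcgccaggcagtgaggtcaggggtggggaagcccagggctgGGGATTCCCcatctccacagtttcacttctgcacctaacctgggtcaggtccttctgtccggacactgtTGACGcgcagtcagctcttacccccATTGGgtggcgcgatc
H2-Q7 at chr17:35438995-35439154, plus strand: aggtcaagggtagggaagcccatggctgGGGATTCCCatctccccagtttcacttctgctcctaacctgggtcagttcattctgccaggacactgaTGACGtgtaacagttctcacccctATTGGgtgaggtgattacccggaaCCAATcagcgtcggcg
H2-T23 at chr17:36032702-36032861, minus strand: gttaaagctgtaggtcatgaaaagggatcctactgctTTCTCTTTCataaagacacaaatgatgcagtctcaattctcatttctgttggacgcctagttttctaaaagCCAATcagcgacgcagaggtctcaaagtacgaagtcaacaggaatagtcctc
B2m at chr2:122147527-122147686, plus strand: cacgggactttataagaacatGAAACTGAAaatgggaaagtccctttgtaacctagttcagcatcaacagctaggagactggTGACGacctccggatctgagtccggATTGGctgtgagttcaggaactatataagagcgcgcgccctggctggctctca

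The lines for H2-K1 and H2-Q7 hold an NF-kB match, 110 and 132 bases before the start, and no interferon-stimulated match. Those for H2-T23 and B2m hold an interferon-stimulated match, 123 and 139 bases before the start, and no NF-kB match. The annotated H2-T23 gene used for counting starts upstream of the RefSeq start, at chr17:36032855 on the minus strand. Most of its printed line, with the match, therefore lies inside that gene. The annotated H2-D1 gene also starts upstream of its RefSeq start. H2-Q4 and Tap1 held neither match. Only exact letters were searched, and close variants were left out. The promoters of H2-K1, H2-D1, H2-Q4 and H2-Q7 hold tttcacttc, which resembles the interferon-stimulated letters on the other strand. That of H2-Q4 holds ggggatttccc and that of B2m gggaaagtccc, which resemble the NF-kB letters. The matches therefore do not sort these promoters into NF-kB and interferon types. Promoters of 300 bases, 250 before the start and 50 after it, were at hand for 8 members, which left out Tap2 and Nlrc5. CCAAT occurred in all 8, TGACG in 7 (not in H2-T23), GAAANNGAA in 3 (H2-T22, H2-T23 and B2m), GGGATTCCC in 3 (H2-K1, H2-D1 and H2-Q7) and TTCNNNGAA in 0. Over all 27025 RefSeq promoters of that length the shares were 37.9, 21.0, 8.57, 0.370 and 8.47%. A match is a run of letters, and no binding was measured here.

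The libraries held 19715161 to 21627018 counts in genes. Aim2 checks the genotype labels, and 1 mouse went against its own. In the mice labelled WT 3 and WT 4, Aim2 stood at 75.0 and 67.5 CPM (counts scaled to a common library size with TMM factors) at 0 h, while the mouse labelled WT 1 had 21.5, close to the 15.7, 20.1 and 19.0 of the Aim2-/- mice. The same held at 24 h, with 5.57 CPM in the mouse labelled WT 1 against 34.0 and 38.7 in WT 3 and WT 4 and 6.55, 7.15 and 5.28 in the Aim2-/- mice. Its libraries were kept under their label. The genotype differences of the members and the calls of other pathway genes are given with and without it. Marker sums and counts of genes without overlap are given only with it. Markers of CD4+ T cells summed to 4665 to 4872 CPM in WT and 4805 to 5066 in Aim2-/- at 0 h over 8 genes, and Cd8a with Cd8b1 to no more than 11.4 CPM in either genotype. Because RNA of whole samples was sequenced, fewer cells of a type and less RNA per cell cannot be told apart. CPM is a share of a library's counts, and the RNA content of a cell is not given in the sources used here. A CPM below rest therefore does not show that a cell held fewer copies.

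Levels between genes were compared per kb of exon. In resting WT cells B2m stood highest at 3205 CPM per kb, followed by H2-K1 at 1976, H2-D1 at 1239, H2-Q4 at 430.4 and H2-Q7 at 203. Tap1 stood at 93.7, Tap2 at 72.2, H2-T23 at 68.3, Nlrc5 at 54.9 and H2-T22 at 49.2 CPM per kb. The classical heavy chains stood more than 10 times above the transporter and the T region genes. At 24 h H2-K1 stood at 681, H2-D1 at 523, H2-Q4 at 86.6 and H2-Q7 at 45.8 CPM per kb, and H2-T23 at 88.2.

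**Figure D1:**
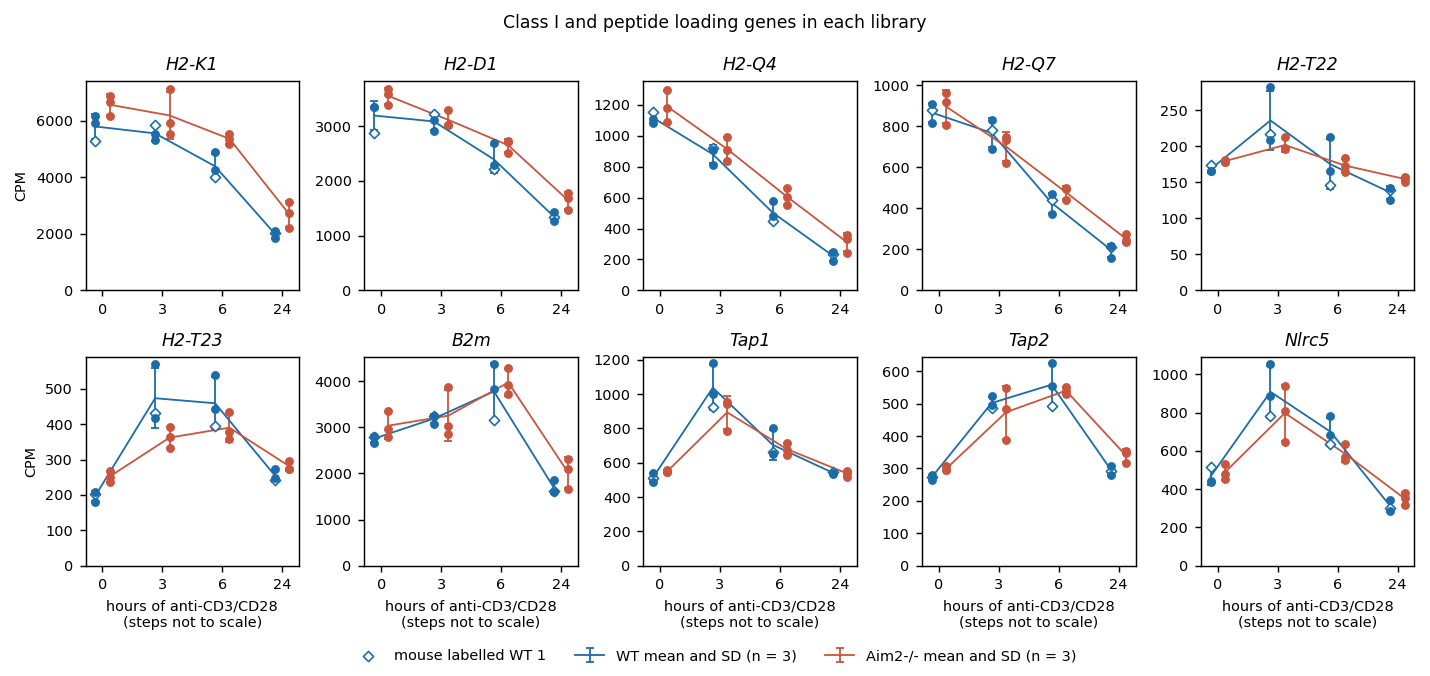
Each panel plots the CPM of 1 gene against hours of stimulation for the 24 libraries, with points for mice, lines for the mean of 3 and bars for the SD; open diamonds mark the mouse labelled WT 1 and the steps of time are not to scale. H2-K1, H2-D1, H2-Q4 and H2-Q7 ran downward to 24 h, whereas H2-T23, Tap1, Tap2 and Nlrc5 stood highest at 3 or 6 h.

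The classical heavy chains were lower from 6 h on in both genotypes, and at 3 h H2-D1 in Aim2-/- was lower as well. Values are given in CPM in the order WT 1, WT 3 and WT 4 or Aim2-/- 1, 2 and 4. H2-K1 read 5299, 6192 and 5923 at 0 h in WT, 5839.9, 5308 and 5531 at 3 h, 4025, 4274 and 4883 at 6 h and 2039, 1853 and 2105 at 24 h. The Aim2-/- libraries read 6674, 6162 and 6894 at 0 h, 5922, 5526 and 7141 at 3 h, 5555, 5199 and 5354 at 6 h and 3128, 2208 and 2735 at 24 h. The 3 h libraries overlapped those at 0 h in both genotypes, those at 6 h lay below, and those at 24 h lay lower again with no overlap. On the log2 scale the difference from 0 h in WT was -0.060 (SE 0.078) at 3 h, -0.40 (SE 0.11) at 6 h and -1.54 (SE 0.087) at 24 h, the last a level of 0.345 times that at rest. The Aim2-/- differences were -0.093 (SE 0.12), -0.29 (SE 0.056) and -1.30 (SE 0.15). All 6 mice were lower at 6 and 24 h.

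H2-D1 read 2882, 3354 and 3347 CPM at 0 h in WT, 3229.6, 2916 and 3113 at 3 h, 2209, 2287 and 2685 at 6 h and 1343, 1274 and 1430.1 at 24 h. In Aim2-/- the readings were 3595, 3389 and 3673 at 0 h, 3025, 3026 and 3295 at 3 h, 2709, 2728 and 2517 at 6 h and 1774, 1467 and 1689 at 24 h. The 6 h and the 24 h libraries lay below those at 0 h in both genotypes, and at 3 h those of Aim2-/- did so while those of WT overlapped rest. The 24 h difference was -1.24 (SE 0.087) in WT and -1.12 (SE 0.089) in Aim2-/-. At 3 h it was -0.047 (SE 0.084) in WT, where the mouse labelled WT 1 stood higher than at 0 h and the others lower, and -0.19 (SE 0.054) in Aim2-/-, where all 3 mice were lower. H2-K1 and H2-D1 tracked each other across the 24 libraries (r = 0.987 of log2 CPM).

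The Q region genes showed the largest differences of the 10. H2-Q4 read 1155, 1111 and 1086 CPM at 0 h in WT, 924, 814 and 905 at 3 h, 446, 482 and 579.6 at 6 h and 236, 188 and 249.9 at 24 h. Aim2-/- mice read 1298, 1091 and 1180.1 at 0 h, 911, 838 and 994 at 3 h, 662, 551 and 604 at 6 h and 357, 244 and 331 at 24 h. It was already lower at 3 h in every mouse of both genotypes, without overlap, and each later time lay below the one before it. The differences from 0 h were -0.34 (SE 0.062), -1.16 (SE 0.11) and -2.32 (SE 0.13) in WT, the last a CPM 0.200 times that at rest. In Aim2-/- they were -0.38 (SE 0.10), -0.97 (SE 0.11) and -1.95 (SE 0.18), the last a CPM 0.259 times that at rest.

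H2-Q7, which encodes Qa-2, read 878, 817 and 908 CPM at 0 h in WT, 784, 691 and 829.9 at 3 h, 439, 374 and 468 at 6 h and 212, 159 and 215 at 24 h. Its levels in Aim2-/- were 964, 921 and 805 at 0 h, 735, 747 and 622 at 3 h, 498, 496 and 442 at 6 h and 273, 236 and 247 at 24 h. At 3 h the WT libraries overlapped those at rest and the Aim2-/- libraries lay below theirs, and from 6 h on both genotypes lay below without overlap. The differences were -0.18 (SE 0.090), -1.03 (SE 0.11) and -2.16 (SE 0.15) in WT and -0.35 (SE 0.11), -0.90 (SE 0.10) and -1.83 (SE 0.10) in Aim2-/-.

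Both T region members stood above rest at 3 h, and only H2-T23 still did so at 24 h. H2-T23, which encodes Qa-1, read 203, 181 and 209 CPM at 0 h in WT, 433, 417 and 572 at 3 h, 395, 444 and 539 at 6 h and 243, 248 and 274 at 24 h. The Aim2-/- libraries read 268, 238 and 251 at 0 h, 333, 392 and 363 at 3 h, 358, 436 and 378 at 6 h and 273, 275 and 296 at 24 h. All 3 stimulated times lay above rest in both genotypes, without overlap. In WT the difference was 1.25 (SE 0.16) at 3 h, a level 2.38 times that at rest, 1.21 (SE 0.15) at 6 h and 0.37 (SE 0.084) at 24 h. The differences in Aim2-/- were 0.52 (SE 0.084), 0.63 (SE 0.10) and 0.16 (SE 0.062). Mouse by mouse the 3 h difference was 1.09 to 1.45 in the WT mice and 0.31 to 0.72 in the Aim2-/- mice. The lowest WT value was that of the mouse labelled WT 1. The share of all genes whose mice separated in this way was not counted, so nothing is read from it.

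H2-T22 read 174, 165 and 165 CPM at 0 h in WT, 216, 208 and 282 at 3 h, 146, 165 and 213 at 6 h and 139.7, 126 and 141 at 24 h. In Aim2-/- the readings were 178, 181 and 178 at 0 h, 195, 212 and 197 at 3 h, 165, 183 and 172 at 6 h and 157, 156 and 150.5 at 24 h. It stood above rest at 3 h, overlapped rest at 6 h and stood below it at 24 h in both genotypes. The WT differences were 0.48 (SE 0.14), 0.040 (SE 0.16) and -0.31 (SE 0.059), and those of Aim2-/- were 0.17 (SE 0.039), -0.051 (SE 0.045) and -0.21 (SE 0.021). The mouse labelled WT 1 was lower at 6 h than at rest and the other WT mice were at or above rest. Because most of its read-length stretches occur in other genes, H2-T22 is the least certain of the heavy chains.

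B2m, the light chain shared by all of these molecules, read 2793, 2672 and 2803 CPM at 0 h in WT, 3247, 3071 and 3257 at 3 h, 3151, 3823 and 4371 at 6 h and 1621, 1609 and 1852 at 24 h. Aim2-/- mice read 2974, 2790.0 and 3349.9 at 0 h, 2856, 3026 and 3882 at 3 h, 3714, 3922 and 4286 at 6 h and 2306, 1658 and 2091 at 24 h. It was highest at 6 h and lowest at 24 h in both genotypes, without overlap with rest at either time. The 6 h difference was 0.44 (SE 0.14) in WT and 0.39 (SE 0.10) in Aim2-/-, and that at 24 h was -0.70 (SE 0.070) and -0.60 (SE 0.16). At 6 h B2m therefore stood above rest while H2-K1 and H2-D1 stood below it.

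The transporter genes had their highest means at different times. Tap1 read 508, 489.9 and 540.3 CPM at 0 h in WT, 926, 1004 and 1184 at 3 h, 661, 649 and 804 at 6 h and 549, 540.3 and 537 at 24 h. Its levels in Aim2-/- were 544, 559.9 and 547 at 0 h, 784, 955 and 943 at 3 h, 675, 718 and 645 at 6 h and 519, 552 and 542 at 24 h. It was highest at 3 h and overlapped rest at 24 h in both genotypes. The differences were 1.01 (SE 0.11), 0.45 (SE 0.11) and 0.081 (SE 0.042) in WT and 0.69 (SE 0.093), 0.30 (SE 0.047) and -0.033 (SE 0.029) in Aim2-/-.

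Tap2 read 273, 281 and 265 CPM at 0 h in WT, 487, 496 and 523 at 3 h, 494, 555 and 627 at 6 h and 293, 281 and 307 at 24 h. The Aim2-/- libraries read 307, 295 and 295 at 0 h, 388, 483 and 549.9 at 3 h, 539, 551 and 531 at 6 h and 355, 317 and 349 at 24 h. Its mean was highest at 6 h in both genotypes, where its libraries overlapped those at 3 h. At 24 h Tap2 still stood above rest without overlap in Aim2-/- but not in WT. The differences were 0.88 (SE 0.040), 1.03 (SE 0.10) and 0.10 (SE 0.046) in WT and 0.65 (SE 0.15), 0.85 (SE 0.025) and 0.19 (SE 0.055) in Aim2-/-. Reads of Tap1 per read of Tap2 went in WT from 1.88 ± 0.150 (SD, n = 3) at rest to 2.06 ± 0.185 at 3 h and 1.26 ± 0.0860 at 6 h.

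Nlrc5, the regulator among the members, read 517, 436 and 445 CPM at 0 h in WT, 784, 889 and 1054 at 3 h, 638, 682 and 781 at 6 h and 302, 286 and 344 at 24 h. In Aim2-/- the readings were 479, 531 and 453 at 0 h, 647, 938 and 808 at 3 h, 568, 636 and 554 at 6 h and 381, 353 and 317 at 24 h. It stood above rest at 3 and 6 h and below rest at 24 h in both genotypes, without overlap. The differences were 0.96 (SE 0.15), 0.59 (SE 0.12) and -0.58 (SE 0.11) in WT and 0.70 (SE 0.17), 0.27 (SE 0.091) and -0.48 (SE 0.10) in Aim2-/-. At 3 h, when Nlrc5 stood highest, H2-K1 and H2-D1 were not above rest in either genotype after TMM scaling.

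**Figure D2:**
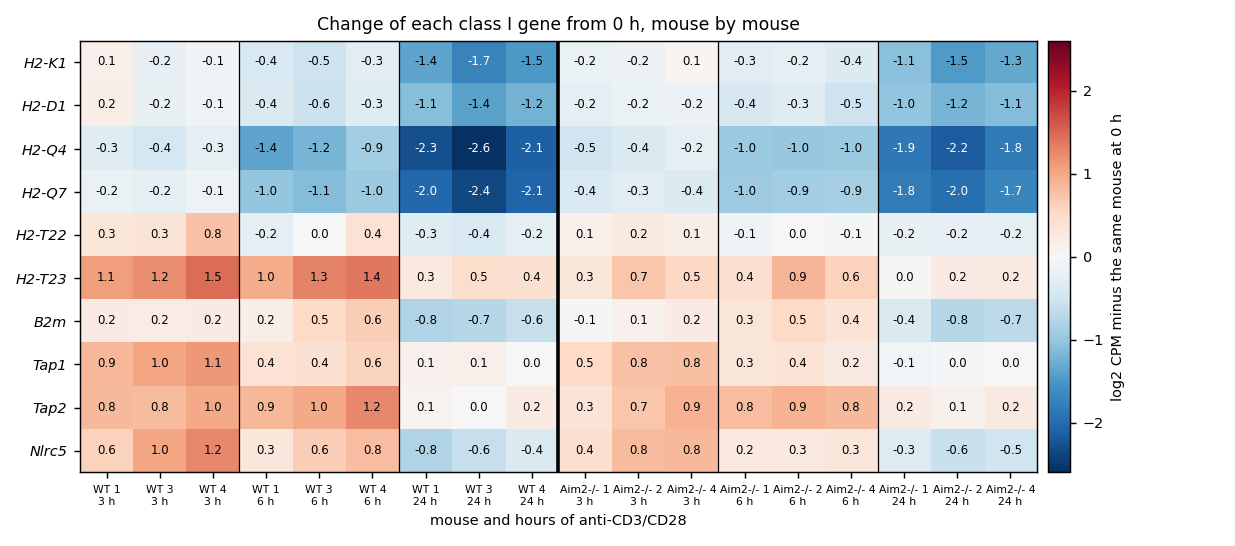
Rows are the 10 genes, columns are mice at 3, 6 and 24 h (WT left, Aim2-/- right), and each cell gives log2 CPM minus that of the same mouse at 0 h, red above and blue below. Every mouse showed H2-Q4 and H2-Q7 below rest at all 3 times and H2-T23 above rest at all 3.

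Counted over the 10 members, 7 did not overlap between 3 h and rest in WT, 6 higher and 1 lower, where 45.9% of the 15325 genes tested did not overlap either. At 6 h it was 9 (5 higher, 4 lower) beside 59.6%, and at 24 h 8 (1 higher, 7 lower) beside 76.6%. In the Aim2-/- mice 8 members did not overlap (5 higher, 3 lower) at 3 h beside 39.9%, 9 (5 higher, 4 lower) at 6 h beside 55.9%, and 9 (2 higher, 7 lower) at 24 h beside 70.9%. The median difference over the members was 0.34, 0.24 and -0.64 at 3, 6 and 24 h in WT, beside 0.014, 0.017 and -0.0092 over all genes tested. The Aim2-/- medians were 0.13, 0.11 and -0.54, beside 0.011, 0.073 and 0.022. Nothing is read from these counts, since the members were picked with these contrasts known. Scaling by library totals alone moved the median of all genes by 0.10 in WT and 0.11 in Aim2-/- at 3 h and by 0.11 in Aim2-/- at 6 h. Under it the small 3 h differences of H2-K1 (0.047 in WT, 0.022 in Aim2-/-) and of H2-D1 in WT (0.060) and the 6 h difference of H2-T22 in Aim2-/- (0.069) were positive, and under DESeq2's size factors that of H2-T22 in WT at 6 h was -0.0088. The other stimulation differences kept their direction under both scalings.

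Ordered by mean, the 8 groups of genotype and time gave 7 pairs of neighbours for each gene. Ranges overlapped in 6 of the 7 for B2m and Tap1, in 5 for H2-T23, in 4 for H2-K1, H2-Q4, H2-Q7, H2-T22, Tap2 and Nlrc5, and in 3 for H2-D1. For H2-Q4 the order was rest, 3 h, 6 h and 24 h, with Aim2-/- above WT at each time and overlapping it each time. For H2-T23 WT at 3 h stood first, followed by WT at 6 h and Aim2-/- at 6 and 3 h, and WT at rest stood last.

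The mix of class I transcripts shifted with time. The 10 members took 1.46 ± 0.0276% of all counts in WT at rest, 1.71 ± 0.0825% at 3 h, 1.43 ± 0.144% at 6 h and 0.663 ± 0.0513% at 24 h. In Aim2-/- they took 1.65 ± 0.0864, 1.77 ± 0.136, 1.63 ± 0.0403 and 0.850 ± 0.129%. Their share was highest at 3 h by the mean and lowest at 24 h, where all 6 libraries lay below all libraries of earlier times. Reads of the 6 heavy chain genes per read of B2m went from 4.12 ± 0.317 at rest to 3.45 ± 0.0738 at 3 h, 2.22 ± 0.180 at 6 h and 2.46 ± 0.122 at 24 h in WT, and from 4.18 ± 0.264 to 3.56 ± 0.323, 2.44 ± 0.235 and 2.65 ± 0.0986 in Aim2-/-. H2-T23 reads came to 3.42 ± 0.463% of H2-K1 reads at rest and 12.8 ± 0.763% at 24 h in WT, and to 3.83 ± 0.192 and 10.7 ± 1.86% in Aim2-/-.

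At rest the means of the 10 genes were slightly higher in Aim2-/-, and several lay within their spread. At 0 h the difference, Aim2-/- minus WT, was positive for all 10, from 0.045 (SE 0.090) for H2-Q7 to 0.35 for H2-T23, with a median of 0.12 beside -0.0057 over all genes, of which 49.1% were positive. Of the 10, 5 (H2-D1, H2-T22, H2-T23, Tap1 and Tap2) were higher without overlap, where 28.5% of all genes did not overlap. H2-K1, H2-Q4, H2-Q7, B2m and Nlrc5 overlapped. Nothing is read from the signs and counts of the members between genotypes at any time. The members were picked with these values known, and several of them run together. H2-T23 stood at 252 ± 15.3 CPM in Aim2-/- and 197 ± 14.9 in WT (mean ± SD, n = 3), a difference of 0.35 (SE 0.081). Without the mouse labelled WT 1 all 10 stayed positive, with a median of 0.12 and H2-T23 at 0.37. In H2-K1 and H2-D1 that mouse had the lowest value of the 6, and without it their differences were 0.12 and 0.083 in place of 0.18 (SE 0.082) and 0.16 (SE 0.080).

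At 3 h only H2-T23 among the 10 did not overlap, and it was now lower in Aim2-/- (-0.38, SE 0.16, and -0.43 without the mouse labelled WT 1), where 15.1% of all genes did not overlap. The median over the members was -0.11, and -0.12 without the mouse labelled WT 1. At 6 h H2-K1 was higher (0.29, SE 0.087, and 0.23 without the mouse labelled WT 1) and Nlrc5 lower (-0.25, SE 0.11, and -0.32 without it) without overlap, beside 35.6% of all genes. The median there was 0.042 with all mice and -0.067 without the mouse labelled WT 1, so its sign rested on that mouse. The differences of B2m and H2-T22 there also turned, from 0.082 (SE 0.15) and 0.0030 (SE 0.17) to -0.043 and -0.12. At 24 h H2-K1, H2-D1, H2-Q7, H2-T22 and Tap2 were higher in Aim2-/- without overlap, beside 21.3% of all genes.

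The 24 h differences were the largest for the classical and Q region genes. H2-K1 stood at 2690.4 ± 462 CPM in Aim2-/- and 1999 ± 131 in WT, a difference of 0.42 (SE 0.16). That of H2-D1 was 0.28 (SE 0.10), that of H2-Q4 0.46 (SE 0.21) with overlapping ranges, and that of H2-Q7 0.38 (SE 0.16). Tap1 stood at 538 ± 16.6 and 542 ± 6.06 CPM, a difference of -0.012 (SE 0.028). Without the mouse labelled WT 1 the differences of H2-K1, H2-D1, H2-Q4, H2-Q7 and Tap1 were 0.43, 0.28, 0.50, 0.44 and -0.0033. The median was 0.23, and 0.21 without the mouse labelled WT 1, beside 0.0019 over all genes. Other scalings turned the sign of near-zero genotype differences only, those of H2-D1 at 3 h, of H2-T22, Tap1 and Tap2 at 6 h and of Tap1 at 24 h.

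**Figure D3:**
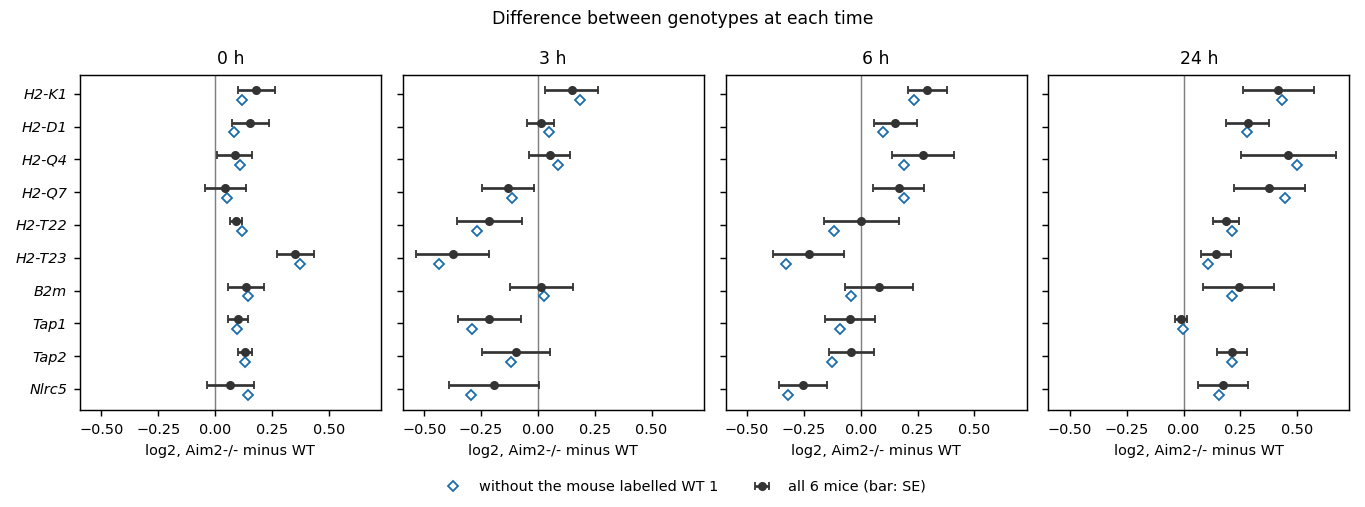
Each panel plots the log2 difference Aim2-/- minus WT of the 10 genes at 1 time, with dots and SE bars for all 6 mice and open diamonds for the value without the mouse labelled WT 1. All 10 dots lie right of 0 at 0 h and 9 of 10 at 24 h, and H2-T23 passes from the right of 0 at 0 h to the left at 3 and 6 h.

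Markers of other cells moved with genotype. At 0 h the 10 B cell genes summed to 12.4 to 16.7 CPM in WT and 19.1 to 52.3 in Aim2-/-, all 10 with the higher mean in Aim2-/-. The 10 myeloid genes summed to 39.6 to 73.2 and 119.6 to 432, the 7 class II genes to 91.8 to 133 and 207 to 529, and the 5 NK cell genes to 35.8 to 56.1 and 98.6 to 119 CPM, with every gene higher in Aim2-/-. The 5 erythroid genes overlapped, at 7.40 to 71.6 and 20.6 to 332. At 24 h the myeloid genes summed to 17.7 to 29.6 CPM in WT and 35.4 to 214 in Aim2-/-, the class II genes to 166 to 243 and 273 to 912, and the NK and B cell sums overlapped. No marker gene was at 0 in any group. All of these cells carry class I, and their part in the genotype differences of the members was not tested.

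At 3 h the members above rest (H2-T23, Tap1, Tap2, Nlrc5, H2-T22 and B2m) stood less far above it in Aim2-/- than in WT, and those below rest (H2-K1, H2-D1, H2-Q4 and H2-Q7) stood further below it. Without the mouse labelled WT 1 H2-K1 went the other way, at -0.16 in WT beside -0.093 in Aim2-/-. At 24 h the members below rest in both genotypes (H2-K1, H2-D1, H2-Q4, H2-Q7, H2-T22, B2m and Nlrc5) stood less far below it in Aim2-/-, H2-T23 less far above it and Tap2 further above it. Each difference was taken from that genotype's own resting libraries, whose means stood higher in Aim2-/- for all 10, and the members give no test of it. The 8 interferon-stimulated genes, which are no members, summed in WT to 278 to 373 CPM at rest and 2200.1 to 3320.2 at 3 h, and in Aim2-/- to 368 to 463 and 1623 to 2718, overlapping between genotypes at each time.

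Across the 24 libraries the correlation of log2 CPM is given as a description, since the points share mice and times. H2-K1 ran with H2-D1 (0.987), H2-Q4 (0.958) and H2-Q7 (0.935). H2-T23 ran with Tap2 (0.930) and Tap1 (0.826), and Tap1 with Nlrc5 (0.881). Among 8661 genes with a mean of at least 10 CPM, the 5 most like H2-K1 included H2-D1 (0.987), Nfkbia (0.984), Cables1 (0.980) and Phf1 (0.980). Those most like B2m were Isg15 (0.947), Crlf2 (0.944), Borcs6 (0.941), Gsdmd (0.941) and Leprotl1 (0.938). The list for Tap1 was led by Irf1, the interferon regulatory factor, and read Irf1 (0.969), Casp8 (0.949), Tgtp2 (0.942), Gbp7 (0.941) and Mink1 (0.936). That for Nlrc5 was led by Adar, an interferon-inducible RNA editor, and read Adar (0.977), Parp10 (0.975), Gbp9 (0.975), Ifi203 (0.969) and Sft2d2 (0.968).

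Of 74 other genes of the pathway, in 8 lists, 70 were matched in the table (Nrdc under its older name Nrd1, and not H2-Q8, H2-Q9, H2-T9 or H2-T26), and the 62 that passed the filter on low counts were tested. Values are log2 fold changes with the SE and the Benjamini-Hochberg adjusted p over all 15325 genes from edgeR's quasi-likelihood test, in which a gene was called at an adjusted p under 0.05. In WT 36 of the 62 were called at 3 h (22 up, 14 down), 46 at 6 h (28 up, 18 down) and 52 at 24 h (22 up, 30 down). The shares of all genes called were 32.6, 51.1 and 71.4%. In Aim2-/- 28 were called at 3 h (16 up, 12 down), 47 at 6 h (26 up, 21 down) and 53 at 24 h (22 up, 31 down), beside 30.7, 51.2 and 70.3% of all genes. The median over the 62 was -0.016, 0.20 and -0.25 in WT and -0.022, 0.086 and -0.42 in Aim2-/-, beside all-gene medians in that fit of 0.015, 0.019, -0.013, 0.017, 0.078 and 0.030. Without the mouse labelled WT 1 the WT counts were 25, 42 and 48, and the calls lost were Ifng, Jak1, Psmb5, Psmb6, Psmb7, Psmb10, H2-Q6, Npepps, Tpp2, Nfkb1 and Nfyc at 3 h, H2-Q10, Nfkb1, Nfyb and Rfxap at 6 h, and Fcgrt, Lilrb4a, Rfxap and Tpp2 at 24 h.

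The immunoproteasome and the proteasome activator rose in most comparisons. All 6 genes rose in WT at 3 and 6 h and 5 at 24 h, and in Aim2-/- 4, 6 and 6 rose. The list's median in WT was 0.65, 1.20 and 1.24. Psmb9, a catalytic subunit that lies beside Tap1, rose by 1.34 (adjusted p = 1.12e-08, SE 0.11) at 3 h in WT and by 1.40 (adjusted p = 1.96e-10, SE 0.11) at 24 h. Psme2, of the activator PA28, rose by 1.52 (adjusted p = 4.37e-09, SE 0.13) at 6 h, and Psmb8 by 1.24 (adjusted p = 1.75e-09, SE 0.11) at 24 h. Psmb10 was the one that did not pass at 24 h in WT (0.19, adjusted p = 0.259, SE 0.15). Psmb9 and Tap1 lie head to head and share a promoter region, and at 24 h Psmb9 was above rest while Tap1 overlapped it. The 3 constitutive counterparts (Psmb5, Psmb6 and Psmb7) also rose at all 3 times in WT and at 6 and 24 h in Aim2-/-, with a median of 1.77 at 24 h in WT.

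Genes of the loading complex divided. In WT, 2 of 9 rose and 4 fell at 3 h, 5 rose and 2 fell at 6 h, and 4 rose and 2 fell at 24 h. The Aim2-/- counts were 2 and 3, 4 and 3, and 4 and 3. Tapbp, which encodes tapasin, rose by 0.98 (adjusted p = 8.36e-07, SE 0.12) at 6 h in WT and did not pass at 24 h (-0.16, adjusted p = 0.242, SE 0.12). The chaperone genes Calr and Canx rose by 1.00 (adjusted p = 2.01e-09, SE 0.089) and 1.24 (adjusted p = 3.05e-09, SE 0.11) at 24 h, after Calr had fallen by 0.38 (adjusted p = 0.00230, SE 0.089) at 3 h. Erap1, the peptidase that trims peptides in the endoplasmic reticulum, rose by 1.34 (adjusted p = 1.24e-08, SE 0.12) at 6 h. Tapbpl, which encodes the tapasin-like TAPBPR, stood at 0.21 (adjusted p = 0.110, SE 0.11) at 6 h in WT and fell by 0.41 (adjusted p = 0.00319, SE 0.11) in Aim2-/-. Among 6 cytosolic peptidases, Thop1 and Lap3 rose by 4.72 (adjusted p = 3.39e-13, SE 0.23) and 3.74 (adjusted p = 1.30e-12, SE 0.20) at 24 h in WT, and Blmh also rose, while Tpp2, Npepps and Nrdc fell, Tpp2 only with the mouse labelled WT 1 included.

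Most of the other class I and class I-like heavy chains went down. Of 13 tested, 1 rose and 1 fell at 3 h in WT, 1 rose and 6 fell at 6 h, and 1 rose and 10 fell at 24 h. The Aim2-/- counts were 1 and 2, 1 and 6, and 1 and 11. The list's median at 24 h was -1.73 in WT and -1.57 in Aim2-/-. H2-Q6 fell by 2.92 (adjusted p = 1.27e-11, SE 0.19), Cd1d1, which presents lipids, by 2.70 (adjusted p = 5.23e-08, SE 0.30), H2-M3 by 1.47 (adjusted p = 2.55e-11, SE 0.10) and Mr1, which presents vitamin B metabolites, by 1.19 (adjusted p = 1.44e-04, SE 0.24) at 24 h in WT. The exception was H2-T24, a T region gene, which rose by 2.75 (adjusted p = 2.78e-07, SE 0.28) at 3 h, 3.23 (adjusted p = 9.45e-09, SE 0.29) at 6 h and 2.00 (adjusted p = 1.75e-06, SE 0.28) at 24 h. It went from 9.57 ± 1.32 to 89.8 ± 17.7 CPM (mean ± SD, n = 3) between rest and 6 h. H2-T10, also a T region gene, fell at 6 and 24 h in both genotypes. H2-Q6 shared 34.3% of its read-length stretches with other genes and is uncertain for that reason. Of the H2-T22 stretches 31.2% also occurred in H2-T10, and of those of H2-Q7 14.9% in H2-Q10 and 7.96% in H2-Q5. Their own shares were not counted, so their falls may not be separate from those of the members. Cd1d2 and Fcgrt were low in WT at rest, at means of 0.748 and 1.19 CPM. In WT the B cell markers summed to 6.16 to 8.84 CPM at 24 h, below their 12.4 to 16.7 at rest. The myeloid sum was lower and the class II sum higher, and their part in the falls was not tested.

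Of 13 enhanceosome genes and regulators, 4 rose and 3 fell at 3 h in WT, 7 rose and 4 fell at 6 h, and 3 rose and 7 fell at 24 h. Those of Aim2-/- were 4 and 2, 6 and 4, and 2 and 6. Irf1 rose by 1.81 (adjusted p = 1.29e-08, SE 0.15) at 3 h and stood at 0.061 (adjusted p = 0.715, SE 0.14) at 24 h in WT. Of the RFX subunits that work with NLRC5, Rfxank fell by 1.59 (adjusted p = 8.76e-11, SE 0.12) and Rfx5 by 0.60 (adjusted p = 1.50e-06, SE 0.083) at 24 h. Rfxap fell by 0.35 (adjusted p = 0.0123, SE 0.12), a call that was lost without the mouse labelled WT 1. In Aim2-/- at 24 h Rfxank and Rfx5 fell as well, and Rfxap stood at -0.18 (adjusted p = 0.183, SE 0.12). Irf2 fell by 0.59 (adjusted p = 8.72e-06, SE 0.093) at 24 h in WT.

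The ligand went up as its receptor went down. Ifng rose by 1.80 (adjusted p = 0.00412, SE 0.46) at 3 h, 2.76 (adjusted p = 3.77e-05, SE 0.46) at 6 h and 2.78 (adjusted p = 1.75e-05, SE 0.46) at 24 h in WT. The receptor genes fell at the same times. The changes of Ifngr1 were -0.74 (adjusted p = 0.00144, SE 0.17), -1.37 (adjusted p = 6.20e-07, SE 0.17) and -3.74 (adjusted p = 3.03e-13, SE 0.18). Those of Ifngr2 were -1.43 (adjusted p = 1.79e-05, SE 0.21), -2.17 (adjusted p = 3.55e-08, SE 0.21) and -3.13 (adjusted p = 6.52e-11, SE 0.22). Socs1, an inhibitor of the receptor's kinases, rose by 4.27 (adjusted p = 3.70e-10, SE 0.26) at 3 h. Jak1 fell at all 3 times and Jak2 at 24 h in WT, the 3 h call of Jak1 only with the mouse labelled WT 1 included. The last list held 6 genes of class I receptors and their relatives. Of these, Cd160 rose at all 3 times in both genotypes, by 3.19 (adjusted p = 5.58e-08, SE 0.32) at 6 h in WT, and Klrd1, Klrc1, Klrc2 and Lilrb4a fell at 24 h in both. The NK cell markers summed to 14.9 to 21.9 CPM at 24 h in WT, below their 35.8 to 56.1 at rest, and their part in that fall was not tested. The WT call of Lilrb4a at 24 h was lost without the mouse labelled WT 1.

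Between genotypes few of the 62 differed. At 0 h 4 were called, beside 5.23% of all genes, with a median of 0.085 over the 62. An unadjusted p under 0.05 was reached by 22, beside 3649 of all 15325 genes. Among them Socs1 (0.88, adjusted p = 0.0370, SE 0.24) and Tapbpl (0.46, adjusted p = 0.0236, SE 0.11) were higher in Aim2-/-, and Creb1 was lower (-0.37, adjusted p = 0.0130, SE 0.075). Without the mouse labelled WT 1 these 4 were called with Jak2 beside them, and with the mouse as a block Socs1 was lost (0.87, adjusted p = 0.0865) and Jak2 gained. At 3 h edgeR called 0 of the 62, beside 0.294% of all genes, while DESeq2 called 1 and limma-voom 0. Over all genes DESeq2 called 307 and limma-voom 63 there. In edgeR 8 had an unadjusted p under 0.05, beside 2350 of all genes. Irf1 stood at -0.49 (adjusted p = 0.139, SE 0.14) there, and was called without the mouse labelled WT 1 (-0.60, adjusted p = 0.0185) and with the mouse as a block (-0.49, adjusted p = 0.0430).

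At 6 h 7 were called, beside 15.8% of all genes, and 16 had an unadjusted p under 0.05, beside 5225 of all 15325 genes. Psmb10 was higher in Aim2-/- (0.50, adjusted p = 0.0333, SE 0.15). Canx (-0.43, adjusted p = 0.0182, SE 0.11), Erap1 (-0.50, adjusted p = 0.0148, SE 0.12) and H2-T24 (-0.84, adjusted p = 0.0364, SE 0.26) were lower, as were Lnpep, Tpp2 and Nfkb1. Without the mouse labelled WT 1 only Erap1 and H2-T24 were still called, and with the mouse as a block 11 were. At 24 h edgeR called 0, beside 0.666% of all genes, with 17 at an unadjusted p under 0.05, beside 3134 of all genes. DESeq2 called 8 and limma-voom 0 there, and no gene was called without the mouse labelled WT 1. Without the mouse Aim2-/- 2 edgeR called 10, 2, 12 and 13 at 0, 3, 6 and 24 h. At 24 h the block called H2-Q6 (0.71, adjusted p = 0.0404) and Ifng (1.67, adjusted p = 0.0428). The shares of all genes called with the block or without a mouse are not given here. The myeloid and class II marker sums were higher in Aim2-/- without overlap at all 4 times, and their part in these calls was not tested.

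Whether stimulation acted differently in the genotypes was asked by the interaction term, the change in Aim2-/- minus the change in WT. edgeR called 0 of the 62 at 3, 6 and 24 h, beside 0%, 0.0261% and 0% of all genes. An unadjusted p under 0.05 was reached by 7, 12 and 9, beside 653, 2019 and 1825 of all 15325 genes. DESeq2 called 0, 2 and 0 of the 62 and limma-voom 0 at each time, and edgeR without the mouse labelled WT 1 also 0. Over all genes DESeq2 called 0, 304 and 185 and limma-voom 0, 2 and 2. The rises of Irf1 and Socs1 at 3 h differed by -0.63 (adjusted p = 0.975, SE 0.20) and -1.18 (adjusted p = 0.947, SE 0.32), larger in WT, and neither passed. With the mouse as a block Irf1 passed at 3 h (-0.63, adjusted p = 0.0498), 5 genes passed at 6 h (Canx, Jak2, Nfkb1, Tapbpl and Thop1) and 5 at 24 h (H2-Q5, H2-Q6, Jak2, Tapbpl and Thop1). The shares of all genes above belong to the fit without the block. That of the block fit is not given here, so nothing is read from its counts. The term for Tapbpl at 6 h was -0.63 (adjusted p = 0.0112) in that fit. The immunoproteasome list had an interaction median of -0.31 at 3 h, beside 0.0036 over all genes.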

How the data were processed

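Polyadenylated RNA of splenic CD4+ T cells was sequenced in 24 libraries (3 mice of each genotype at 0, 3, 6 and 24 h). The authors deposited 1 table of raw counts per Ensembl gene, made with STAR on GRCm38; single-end reads of 51 bases came from a stranded kit, and the submitters' processing notes also name DESeq2 and edgeR. Whether strand was used in counting is not given in the sources used here. Groups came from the sample labels. The 10 members and all gene lists were chosen with earlier results of these data known.

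From the deposited counts, log2 CPM (prior count 2) was computed with TMM factors over the 15325 genes that passed filterByExpr (minimum count 10), and CPM over library totals multiplied by the same factors. Members were described by library, mean and SD, and by the difference of mean log2 CPM with its SE over 3 and 3 libraries. A member did not overlap when all libraries of one group lay above all of the other. Other pathway genes were tested two-sided with edgeR's quasi-likelihood fit (edgeR 4.0.16, limma 3.58.1 and DESeq2 1.42.0 in R 4.3.3) over all 24 libraries and Benjamini-Hochberg adjustment over all genes tested. The script was tested on simulated data.

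Libraries of 1 mouse deviated together (36 pairs, r 0.139 to 0.567, against -0.432 to 0.0742 in 72 pairs of different mice), so the number pairs the samples, and fits with the mouse as a block were run (edgeR for stimulation and interaction, limma-voom with a correlated mouse effect for genotype). Nothing in the sources used here says that mice came from separate experiments, so p-values measure only the spread between these samples. Other alternatives were other scalings, filters, prior counts and tools and leaving out each library or mouse.

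Named were the members, Aim2, marker sums, pathway genes fixed by role, up to 3 rises and 3 falls called in each comparison with the largest changes, and the 5 genes most like each of 4 members, with others named to complete a count. Some named by this rule are not reported here. Promoter and gene sequences came from RefSeq (GRCm38.p6) and the reference annotation, and matches were by symbol. Shared stretches were counted over annotated transcripts.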

Additional observations from a re-analysis of the deposited data

Results flagged for a closer look

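In 3 pathway genes every WT mouse moved one way from its own resting library and every Aim2-/- mouse the other way. The share of all genes that did so was not counted, so nothing is read from their number. Tapbpl at 3 h differed from 0 h by a mean of 0.22 in WT (0.16 to 0.26 on the log2 scale, n = 3) and of -0.25 in Aim2-/- (-0.57 to -0.057, n = 3), with an interaction term of -0.45 (SE 0.15, adjusted p = 1.00, edgeR). Tapbpl at 6 h differed from 0 h by a mean of 0.21 in WT (0.080 to 0.32 on the log2 scale, n = 3) and of -0.42 in Aim2-/- (-0.54 to -0.27, n = 3), with an interaction term of -0.63 (SE 0.15, adjusted p = 0.0831, edgeR). H2-Bl at 3 h differed from 0 h by a mean of 0.38 in WT (0.17 to 0.67 on the log2 scale, n = 3) and of -0.31 in Aim2-/- (-0.36 to -0.28, n = 3), with an interaction term of -0.77 (SE 0.43, adjusted p = 1.00, edgeR). H2-Bl at 6 h differed from 0 h by a mean of 0.17 in WT (0.0062 to 0.27 on the log2 scale, n = 3) and of -0.71 in Aim2-/- (-1.03 to -0.35, n = 3), with an interaction term of -0.94 (SE 0.43, adjusted p = 0.354, edgeR). Irf1 at 24 h differed from 0 h by a mean of 0.059 in WT (0.027 to 0.082 on the log2 scale, n = 3) and of -0.12 in Aim2-/- (-0.19 to -0.016, n = 3), with an interaction term of -0.18 (SE 0.20, adjusted p = 0.762, edgeR). Only the term for Tapbpl at 6 h passed with the mouse as a block (adjusted p = 0.0112, edgeR), and none of the 5 passed without the mouse labelled WT 1. Tapbpl already differed at rest, at 106 ± 3.37 CPM in WT and 146 ± 5.84 in Aim2-/- (mean ± SD, n = 3). At 3 h it stood at 124 ± 2.28 and 124 ± 20.6 CPM. H2-Bl is a class I gene counted at low levels, 0.761 ± 0.0956 CPM in WT and 1.32 ± 0.188 in Aim2-/- at rest (mean ± SD, n = 3).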

How the results depend on the processing

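Counts of pathway genes called under stimulation stayed within 1.5 times of the main count under each other scaling, filter, tool and block run, apart from the mouse left out that is named below. Genotype counts did not. Against main counts of 4, 0, 7 and 0 at 0, 3, 6 and 24 h, DESeq2 gave 7, 1, 12 and 8, and no filter on low counts, which tests more genes, gave 12, 4, 13 and 8. Over all genes the main fit called 802, 45, 2421 and 102 and DESeq2 called 1557, 307, 3311 and 787. The 6 h count was 3 with only the libraries compared, and the 24 h count was 2 with library totals alone and 1 with a mean of at least 1 CPM. For the interaction at 3, 6 and 24 h no filter gave 1, 4 and 1, and DESeq2 gave 2 at 6 h. The cause was not tested.

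With the mouse as a replicate block, the genotype counts were 4, 1, 11 and 2 and the interaction counts 1, 5 and 5, where the fit without it gave 4, 0, 7, 0 and 0, 0, 0. The block moved the Aim2-/- 3 h count from 28 to 40 and changed no stimulation count by over 1.5 times.

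Leaving out 1 library or 1 mouse gave 25 to 37, 42 to 48 and 48 to 51 calls in WT at 3, 6 and 24 h and 17 to 30, 44 to 47 and 48 to 54 in Aim2-/-, where 17 was reached without Aim2-/- 4. Genotype counts ran from 0 to 10, 0 to 2, 0 to 12 and 0 to 14, and interaction counts were 0, 0 to 1 and 0. The 0 h count was 0 or 1 without Aim2-/- 1, Aim2-/- 4, WT 3 or WT 4 and 10 without Aim2-/- 2. The 6 h count was 0 to 2 without any mouse but Aim2-/- 2, where it was 12, and 0 to 3 without any single 6 h library but that of Aim2-/- 2, where it was 9. The 24 h count was 13 without Aim2-/- 2, and 14 without its 24 h library alone. The 3 h count was 2 without Aim2-/- 2 and 1 without the mouse labelled WT 1, and the 6 h interaction was 1 without that mouse's 0 h library.

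The median over the members was 0.45 in WT and 0.24 in Aim2-/- at 3 h with library totals alone, and at 6 h in Aim2-/- 0.045 with DESeq2's size factors and 0.23 with library totals. Leaving out 1 library or mouse gave 0.27 to 0.40, 0.11 to 0.34 and -0.72 to -0.58 in WT and 0.071 to 0.18, 0.057 to 0.14 and -0.63 to -0.47 in Aim2-/- (-0.62 to -0.48 at 24 h for single libraries). The WT value at 6 h was 0.11 without WT 4. Between genotypes leaving one out gave 0.10 to 0.14, -0.16 to -0.0087, -0.067 to 0.17 and 0.18 to 0.31 at 0, 3, 6 and 24 h, where the 6 h median was negative without the mouse labelled WT 1 and 0.17 without WT 4. Among the pathway genes tested and named, 2 turned their direction, neither of them called at 24 h in WT: Irf1 was -0.0037 without WT 3 (0.074 without the mouse labelled WT 1 at most), and Psmb10 was -0.0032 without WT 4 (0.29 without WT 3 at most). With 3 mice a genotype, and 1 of them against its label, small genotype differences cannot be resolved, and reads shared between heavy chain genes limit the separate levels of those genes.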
